A study of Mus musculus with 6 samples.

Results

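The semaphorin guidance system was followed in retinal ganglion cells (RGCs), the projection neurons of the retina, through 32 of the 24060 genes in the count table. The members were taken by gene symbol alone, as every semaphorin of classes 3 to 7, every plexin of the A, B, C and D groups and both neuropilins. They comprised 20 semaphorins, 9 plexins, 2 neuropilins and Plxna4os1, an antisense RNA whose symbol begins like that of a plexin. All were from C57BL/6 mice with no transgene or treatment named, and RGCs were held on dishes coated with antibodies against CD90 (Thy1) after macrophages had been removed. The groups were 3 samples at E18 (embryonic day 18; replicates 1, 3 and 4) and 3 at P5 (postnatal day 5; replicates 6, 8 and 9), and RNA was sequenced after ribosomal RNA depletion. Nothing in the labels says that the samples came from separate litters, and the name of the first E18 column holds the numbers 1, 2 and 5, so p-values measure the spread between these samples only. The study compared these ages because RGCs extend axons readily at E18 and have lost much of that capacity by P5.

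Semaphorins are guidance cues that mostly repel or collapse growth cones and in some settings attract them. Class 3 members are secreted, classes 4 to 6 span the membrane and class 7 is held by a lipid anchor. Plexins are the signalling receptors. Most class 3 members cannot bind a plexin alone and use a neuropilin as the ligand-binding subunit, whereas Sema3e binds Plxnd1 directly. In the visual system, Nrp1 and Plxna1 are known for the crossing of RGC axons at the optic chiasm, where Sema6d is also displayed, and Sema5a and Sema5b are known to confine neurites of inner retinal neurons to the inner plexiform layer.

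Reads assigned to genes numbered 81213639 to 114512853 a library, and values below are CPM (reads per 1000000 assigned, scaled by TMM factors), for which 1 read was worth 0.00892 to 0.0121 CPM. The RGC marker Rbpms lay between 276 and 320 CPM at E18 and between 290 and 329 CPM at P5. Summed over 15 RGC markers, the samples held 7913 to 9325 CPM at E18 and 8592 to 9908 at P5. Single markers were less even, with 3 of the 15 higher and 6 lower at E18. Of all genes tested, 20.8% were called higher and 22.5% lower at E18, and marker counts are to be read beside these shares. Isl1 had a mean of 557 CPM at E18 and 260 at P5, and Slc17a6 of 282 and 744. Other cell types were present unevenly. The 16 markers of progenitors and dividing cells summed to 543, 184 and 104 CPM in E18 replicates 1, 3 and 4 and to 77.6 to 98.1 CPM at P5, with 9 of the 16 higher at E18. The 13 amacrine and horizontal cell markers summed to 799, 1001 and 658 CPM at E18 and to 549.6 to 668 at P5. Pax6 alone made up 661, 750 and 622 CPM of these sums at E18 and 498 to 628 at P5, so they hide most of the unevenness of the other markers. Of the 12 tested, 6 were higher at E18 and 0 lower. The 11 endothelial and pericyte markers summed to 72.6, 64.5 and 16.4 CPM at E18 and to 14.7 to 17.8 at P5, of which Kdr made up 14.1 to 69.5 CPM at E18 and 4.79 to 11.3 at P5, while the defining endothelial genes Cdh5 and Tie1 were between 0 and 0.0609 CPM. The 11 microglial markers reached 3.61 to 5.34 CPM in any sample and the 10 oligodendrocyte markers 56.6 to 94.7. Among oligodendrocyte markers Mbp had 24.9 to 47.8 CPM, Mog 6.57 to 23.4 and Cnp 12.1 to 19.7. The lineage genes Sox10, Olig1 and Olig2 had at most 0.110, 0.237 and 1.22 CPM. The 12 photoreceptor markers reached 4.17 to 12.9 CPM, the 9 bipolar markers 50.1 to 97.8 and the 10 markers of Müller glia and astrocytes 417 to 507. A few genes carried most of the last sums. Among bipolar markers Prkca had 40.7 to 92.2 CPM and Grm6 at most 0.0362. Among glial markers Glul had 230 to 326 CPM and Dkk3 95.1 to 201, whereas Gfap had at most 0.117. With bulk samples, fewer cells of a type and less RNA per cell cannot be told apart.

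All 32 members passed the expression filter and were tested with edgeR's quasi-likelihood test, adjusted over the 16449 genes tested. Of these, 10 were higher at E18 and 6 were lower, or 50% of the members against 43.4% of all genes tested. The members higher at E18 were Plxna3, the 3 B plexins, Sema3e, Sema3f, Sema4c, Sema4g, Sema6c and Sema6d, and those lower were Nrp2, Plxnc1, Plxnd1, Sema3c, Sema5a and Sema6b. The share called higher was 20.8% among all genes and the share called lower 22.5%. The median log2 fold change of E18 over P5 was 0.23 over the members and 0.0047 over all genes tested. In 19 members the values of the ages did not overlap, as in 56.1% of all genes, and these included every called member. Receptors carried the largest differences among members above 1 CPM, with Plxnb1 at the top and Plxnd1 at the bottom of the log2 scale.

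**Figure D1:**
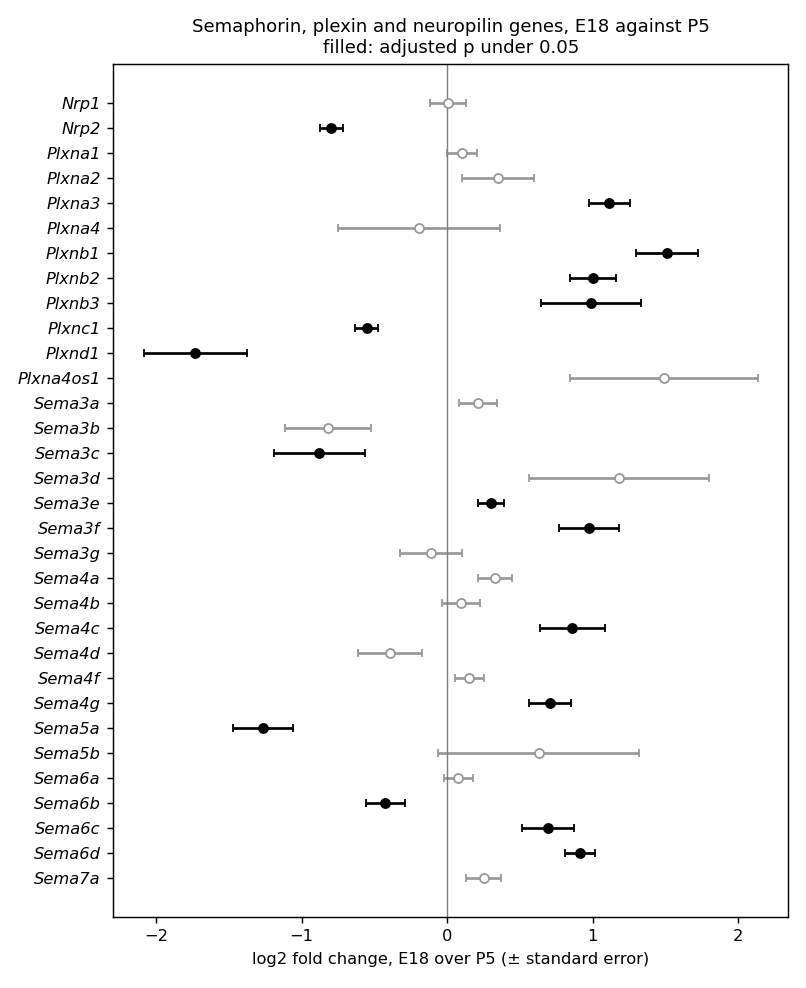
Log2 fold change of E18 over P5 (horizontal axis) with its standard error for each of the 32 members; filled points have an adjusted p under 0.05 in edgeR's quasi-likelihood test. The called members run from -1.73 for Plxnd1 to 1.51 for Plxnb1.

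The neuropilins parted. Nrp1, the ligand-binding subunit for Sema3a and also a receptor for a form of VEGF-A, had 237, 245 and 279 CPM in E18 replicates 1, 3 and 4. At P5 it had 249, 293 and 218 CPM in replicates 6, 8 and 9. The ages overlapped fully (log2 fold change 0.0036, standard error 0.123, edgeR adjusted p = 0.985), and the sign turned when single samples were left out. Nrp2, which binds Sema3f, had 89.9, 96.3 and 99.2 CPM at E18 against 164, 166 and 165 at P5. Every P5 sample was above every E18 sample, the P5 samples lay within 1.02-fold of each other, and the mean was 1.74-fold higher at P5 (log2 fold change -0.80, standard error 0.0817, edgeR adjusted p = 0.000336). Within each library the ratio of Nrp2 to Nrp1 reads was 0.355 to 0.392 at E18 and 0.567 to 0.760 at P5. Nrp1 lies on chromosome 8 of mm10 (128358604 to 128503363, plus strand) and Nrp2 on chromosome 1 (62703285 to 62818695, plus strand).

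Of the 4 A plexins, the receptors that pair with neuropilins or bind class 5 and 6 semaphorins directly, Plxna3 alone was called. That is 25%, against 43.4% of all genes tested. Plxna3 had 265, 261 and 307 CPM at E18 and 157, 119 and 109 at P5. The lowest E18 sample stood well above the highest P5 sample, and the mean was 2.17-fold higher at E18 (log2 fold change 1.12, standard error 0.143, edgeR adjusted p = 0.000769). Plxna1, a receptor for Sema6d and for class 3 signals, had 230, 259 and 277 CPM at E18 and 220, 233 and 260 at P5, overlapping throughout (log2 fold change 0.10, standard error 0.104, edgeR adjusted p = 0.451). Plxna3 reads numbered 1.01 to 1.15 per Plxna1 read in the E18 libraries and 0.419 to 0.711 at P5, so the ranges of this ratio did not overlap either. Some 970 of the 9034 exon bases of Plxna1 are covered on the opposite strand by the antisense gene Gm26811, and whether counting used strand is not given in the sources used here. Plxna2, a receptor for Sema6a, had 137, 219 and 101 CPM at E18 and 99.4, 131 and 128 at P5, with E18 replicate 3 above all others (log2 fold change 0.35, standard error 0.248, edgeR adjusted p = 0.280). Plxna4, another receptor for Sema6a and for Sema3a, was low, with 8.56, 18.9 and 2.54 CPM at E18 and 9.68, 9.76 and 14.8 at P5. Its E18 samples held both the highest and the lowest value of all 6 (log2 fold change -0.19, standard error 0.556, edgeR adjusted p = 0.802). The antisense RNA Plxna4os1, whose exons share no base with those of Plxna4 in GENCODE, had 0.193, 0.410 and 0.133 CPM at E18 and 0.0226, 0.152 and 0.0850 at P5. Its 2 to 46 reads per library gave a log2 fold change of 1.49 with a standard error of 0.647 (edgeR adjusted p = 0.0925), and it passed in edgeR's likelihood ratio test (adjusted p = 0.0447) and without P5 replicate 8 (edgeR adjusted p = 0.0471).

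All 3 B plexins were higher at E18, as were 20.8% of all genes tested. Plxnb1 and Plxnb2 are receptors of class 4 semaphorins, and Plxnb3 binds Sema5a. Plxnb1, the receptor of Sema4d, had 126, 138 and 131 CPM at E18 against 46.5, 61.3 and 30.7 at P5. The E18 samples were tightly grouped, the P5 samples spread 1.99-fold with replicate 8 highest, and the mean was 2.85-fold higher at E18 (log2 fold change 1.51, standard error 0.213, edgeR adjusted p = 0.00109). An antisense gene, Gm7628, covers 257 of its 8649 exon bases. Plxnb2, the receptor of Sema4c, had 158, 161 and 179.7 CPM at E18 and 74.4, 106 and 68.4 at P5. Again P5 replicate 8 came closest to the E18 samples without reaching them (log2 fold change 1.00, standard error 0.160, edgeR adjusted p = 0.00184). Plxnb3, known mainly from oligodendrocytes, was barely detected, with 0.506, 0.624 and 0.530 CPM at E18 and 0.169, 0.345 and 0.319 at P5. These are 15 to 70 reads per library, and its call (log2 fold change 0.99, standard error 0.342, edgeR adjusted p = 0.0441) was lost with DESeq2 and in each fit without one sample, other than that without P5 replicate 8 (adjusted p up to 0.151). The summed B plexins were 285 to 311 CPM at E18 and 99.5 to 168 CPM at P5.

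Plxnc1 and Plxnd1 went the other way. Plxnc1, the receptor of Sema7a, had 72.6, 75.4 and 70.1 CPM at E18 against 107, 108 and 105 at P5. Samples of one age lay within 1.08-fold of each other, and the P5 mean was 1.47-fold higher (log2 fold change -0.55, standard error 0.0806, edgeR adjusted p = 0.00126). Plxnd1, the receptor of Sema3e and a known receptor of endothelial cells, had 5.56, 2.66 and 2.16 CPM at E18 and 9.17, 10.3 and 14.9 at P5. All P5 samples exceeded all E18 samples, with a mean 3.31-fold higher at P5 (log2 fold change -1.73, standard error 0.352, edgeR adjusted p = 0.00517). Of 7 tested endothelial and pericyte markers, 3 were lower and 1 was higher at E18, against 22.5% and 20.8% of all genes tested. Pecam1 was 0.562 to 0.894 CPM at E18 and 2.09 to 2.67 at P5 and Tek 0.544 to 1.00 and 2.25 to 3.64. Rgs5, a pericyte gene, was 0.0964 to 0.133 CPM at E18 and 1.47 to 3.08 at P5. Pdgfrb, Cldn5 and Flt1 were not called. Their means were 0.350, 0.127 and 0.145 CPM at E18 and 0.166, 0.0866 and 0.163 at P5. Kdr was the marker higher at E18, with the values given above (log2 fold change 2.68, edgeR adjusted p = 0.00545), and Cdh5 and Tie1 were near 0 at both ages. The part of endothelial and pericyte RNA in the Plxnd1 difference was not tested.

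**Figure D2:**
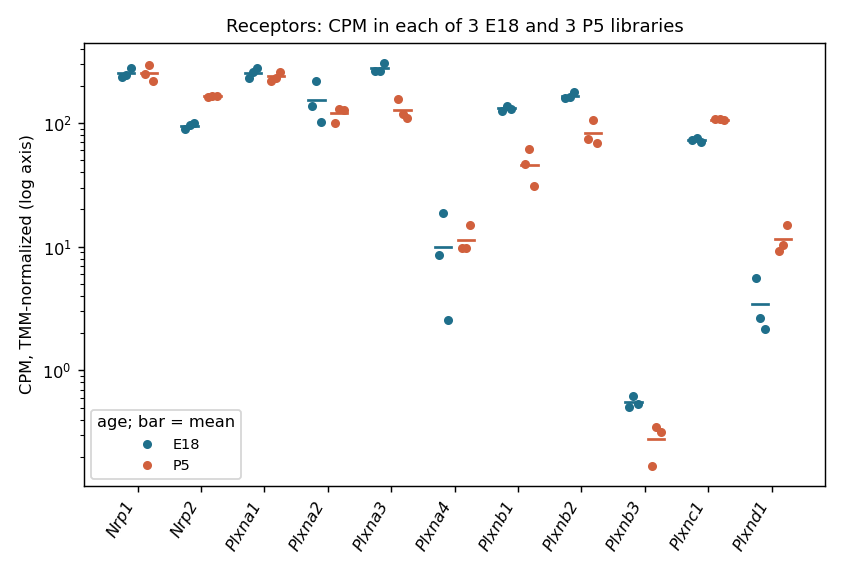
CPM (log axis) of the 2 neuropilins and 9 plexins in each of the 3 E18 and 3 P5 libraries, with bars at the mean. Plxna3, Plxnb1, Plxnb2 and Plxnb3 are higher in every E18 library and Nrp2, Plxnc1 and Plxnd1 in every P5 library. Plxna4 spreads most within E18, from 2.54 to 18.9 CPM.

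The promoters of 4 members with large differences are shown because the study is concerned with the transcription factors Elk-1 and REST. RefSeq promoters (GRCm38.p6, the mm10 build; 250 bases before to 50 after a start) were found for 26 of the 32 members, with 37 starts. They were searched on both strands for CCGGAAG, the core of an Elk-1 site, for GGGCGG, the core of an Sp1 site, and for TCAGCACC, the first part of a REST site. The 280 bases printed run 5′ to 3′ along the gene from 250 before to 30 after the start, with matches to any of these letters in capitals. They are chr9:109095186-109095465 (plus strand) for Plxnb1, chrX:74328816-74329095 (plus) for Plxna3, chr6:115994976-115995255 (minus) for Plxnd1 and chr15:32244563-32244842 (plus) for Sema5a. Plxnb1 and Plxna3 were higher at E18, Plxnd1 and Sema5a higher at P5.
Plxnb1: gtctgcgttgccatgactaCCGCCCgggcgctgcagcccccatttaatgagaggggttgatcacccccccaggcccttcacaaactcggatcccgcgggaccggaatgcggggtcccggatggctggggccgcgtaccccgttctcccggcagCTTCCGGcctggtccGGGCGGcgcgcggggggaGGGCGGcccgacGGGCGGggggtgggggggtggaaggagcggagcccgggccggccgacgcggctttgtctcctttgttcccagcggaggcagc
Plxna3: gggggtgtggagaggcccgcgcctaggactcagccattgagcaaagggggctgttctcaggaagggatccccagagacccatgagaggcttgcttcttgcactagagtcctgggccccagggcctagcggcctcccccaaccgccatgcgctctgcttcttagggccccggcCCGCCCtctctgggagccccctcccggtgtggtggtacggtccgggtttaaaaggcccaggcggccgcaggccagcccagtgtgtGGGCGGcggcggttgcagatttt
Plxnd1: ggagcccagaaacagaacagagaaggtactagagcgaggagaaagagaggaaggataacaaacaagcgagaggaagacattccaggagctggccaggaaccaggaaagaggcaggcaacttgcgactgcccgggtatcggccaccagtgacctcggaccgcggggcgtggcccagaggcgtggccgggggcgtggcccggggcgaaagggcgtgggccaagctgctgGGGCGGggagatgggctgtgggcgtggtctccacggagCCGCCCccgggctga
Sema5a: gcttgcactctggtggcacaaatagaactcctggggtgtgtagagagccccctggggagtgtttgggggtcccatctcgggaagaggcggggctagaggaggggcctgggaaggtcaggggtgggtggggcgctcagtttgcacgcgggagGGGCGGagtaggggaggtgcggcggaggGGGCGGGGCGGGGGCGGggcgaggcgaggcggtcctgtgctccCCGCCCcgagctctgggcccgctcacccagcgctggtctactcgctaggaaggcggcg
The Elk-1 letters occurred in 1 of the 26 members, Plxnb1, where they read CTTCCGG on the strand shown at bases -97 to -91 from the start, against 9.93% of all 27025 genes with a promoter. The REST letters occurred in 1 member, Sema3c, against 1.85% of all genes. The Sp1 letters occurred in 21 of 26 members (80.8%) against 38.2% of all genes. The 27025 genes had 32851 starts and were not limited to genes tested here. All of the promoters printed held Sp1 letters, but 4 promoters are too few to compare members higher at E18 with those higher at P5. A match gives letters only and is not a measured site.

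Among the secreted class 3 semaphorins, 2 of 7 were higher at E18 and 1 lower, or 42.9% called against 43.4% of all genes tested. Sema3e, the ligand of Plxnd1, was the most abundant, with 175, 185 and 196 CPM at E18 and 158, 142 and 152 at P5. The difference was small and the ages did not overlap (log2 fold change 0.30, standard error 0.0873, edgeR adjusted p = 0.0232), and the call was lost without E18 replicate 3 (0.0760) or E18 replicate 4 (0.0891). Sema3f, the ligand of Nrp2, had 40.2, 39.6 and 42.5 CPM at E18 and 17.99, 28.6 and 15.5 at P5, a 1.97-fold higher mean at E18 (log2 fold change 0.98, standard error 0.205, edgeR adjusted p = 0.00603). It was thus higher where its receptor subunit Nrp2 was lower. Plxna3, the plexin paired with it, was higher at E18 as Sema3f was (log2 fold change 1.12). Sema3a, the classic collapsing cue and a ligand of Nrp1, had 112, 152 and 109 CPM at E18 and 109, 107 and 106 at P5, where E18 replicate 3 stood apart and the other values lay close together without overlap between ages (log2 fold change 0.21, standard error 0.130, edgeR adjusted p = 0.212). Sema3d was uneven at E18, with 6.73, 13.5 and 1.40 CPM against 3.42, 2.46 and 3.69 at P5 (log2 fold change 1.18, standard error 0.621, edgeR adjusted p = 0.153), and it passed without E18 replicate 4 (0.00498). Sema3b had 2.04, 2.02 and 2.34 CPM at E18 and 3.94, 2.23 and 5.14 at P5, just missing the threshold (log2 fold change -0.82, standard error 0.295, edgeR adjusted p = 0.0503). It overlapped only through P5 replicate 8, and it passed without that sample (0.00352) and with DESeq2 (0.0202). Sema3c, with 43 to 114 reads per library, had 0.639, 0.455 and 0.475 CPM at E18 and 1.29, 0.904 and 0.691 at P5. Its call (log2 fold change -0.88, standard error 0.314, edgeR adjusted p = 0.0497) was lost under 9 of the 12 alternatives that tested it, with adjusted p up to 0.166. Sema3g, known from arterial endothelium, stayed at 1.57 to 2.08 CPM in every sample (log2 fold change -0.11, standard error 0.215, edgeR adjusted p = 0.701).

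These genes are neighbours in the genome without matching levels. Sema3d, Sema3a, Sema3e and Sema3c lie within 5.35 Mb of chromosome 5 (12383385 to 17730268), and their mean levels at E18 ran from 0.523 CPM for Sema3c to 186 for Sema3e. Sema3b and Sema3f lie within 112802 bases of chromosome 9 (107597674 to 107710475, both on the minus strand), and their log2 fold changes had opposite signs, -0.82 and 0.98.

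Class 4 held 2 called members of 6, both higher at E18, or 33.3% called against 43.4% of all genes tested. Sema4g had 80.6, 92.0 and 73.4 CPM at E18 and 41.3, 59.5 and 49.8 at P5, with no overlap (log2 fold change 0.71, standard error 0.145, edgeR adjusted p = 0.00529). Sema4c, the ligand of Plxnb2, had 56.5, 60.5 and 64.2 CPM at E18 and 28.4, 47.5 and 23.8 at P5. P5 replicate 8 lay far above the other P5 samples (log2 fold change 0.86, standard error 0.225, edgeR adjusted p = 0.0152), and the call was lost without P5 replicate 6 (0.0695). A gene on the opposite strand, D430040D24Rik, covers 334 of its 4257 exon bases. Sema4a, which is known to bind Plxnb1 and Plxnd1, had 28.6, 25.1 and 32.3 CPM at E18 and 23.6, 21.7 and 23.2 at P5. Its ages did not overlap, and it missed the threshold narrowly (log2 fold change 0.33, standard error 0.118, edgeR adjusted p = 0.0507), passing with DESeq2 (0.0271). Sema4f had 24.8 to 27.1 CPM at E18 and 22.3 to 24.2 at P5 (log2 fold change 0.15, standard error 0.0989, edgeR adjusted p = 0.240). Sema4b had 39.3, 41.6 and 40.0 CPM at E18, inside the P5 range of 31.6 to 44.8 (log2 fold change 0.09, standard error 0.131, edgeR adjusted p = 0.585). Sema4d, the ligand of Plxnb1 and a product of oligodendrocytes and lymphocytes, had 11.2, 6.93 and 7.66 CPM at E18 and 9.26, 14.0 and 10.6 at P5 (log2 fold change -0.39, standard error 0.221, edgeR adjusted p = 0.178).

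The class 5 pair, which carry thrombospondin repeats, differed from each other in how they varied. Sema5a had 21.1, 14.7 and 12.98 CPM at E18 and 35.1, 33.8 and 48.5 at P5. Every P5 sample was above every E18 sample and the mean was 2.403-fold higher at P5 (log2 fold change -1.27, standard error 0.208, edgeR adjusted p = 0.00204). It lies on chromosome 15 of mm10 (32244810 to 32696341, plus strand). Sema5b had 4.04 CPM in E18 replicate 1 but 0.767 and 0.453 in E18 replicates 3 and 4, and 0.981, 1.07 and 1.33 at P5. Its log2 fold change of 0.63 (standard error 0.691, edgeR adjusted p = 0.486) turned to -0.87 without E18 replicate 1.

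Class 6, transmembrane cues that bind A plexins, had 3 of 4 members called, 2 of them higher at E18. That is 75% of only 4 genes, against 43.4% of all genes tested. Sema6d, a ligand of Plxna1, had 87.5, 104 and 101 CPM at E18 and 52.6, 55.0 and 48.01 at P5. The ages were widely separated, with a mean 1.88-fold higher at E18 (log2 fold change 0.91, standard error 0.102, edgeR adjusted p = 0.000457). Sema6c had 52.0, 53.4 and 63.0 CPM at E18 and 30.7, 45.2 and 28.3 at P5 (log2 fold change 0.69, standard error 0.176, edgeR adjusted p = 0.0134), and the call was lost without P5 replicate 6 (0.0598). Sema6b, a ligand of Plxna4, had 22.8, 23.6 and 27.2 CPM at E18 and 27.5, 35.0 and 36.3 at P5. Its highest E18 sample nearly met its lowest P5 sample (log2 fold change -0.42, standard error 0.134, edgeR adjusted p = 0.0314), and the call was lost without E18 replicate 1 (0.116), E18 replicate 3 (0.112) or P5 replicate 9 (0.0954). Sema6a, a ligand of Plxna2 and Plxna4, had 184, 172 and 177 CPM at E18 and 152, 190.0 and 162 at P5, so the E18 samples fell inside the P5 range (log2 fold change 0.08, standard error 0.101, edgeR adjusted p = 0.562). Sema7a, the lone class 7 member, had 49.6, 63.8 and 53.3 CPM at E18 and 42.6, 50.7 and 46.8 at P5 (log2 fold change 0.25, standard error 0.120, edgeR adjusted p = 0.120).

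**Figure D3:**
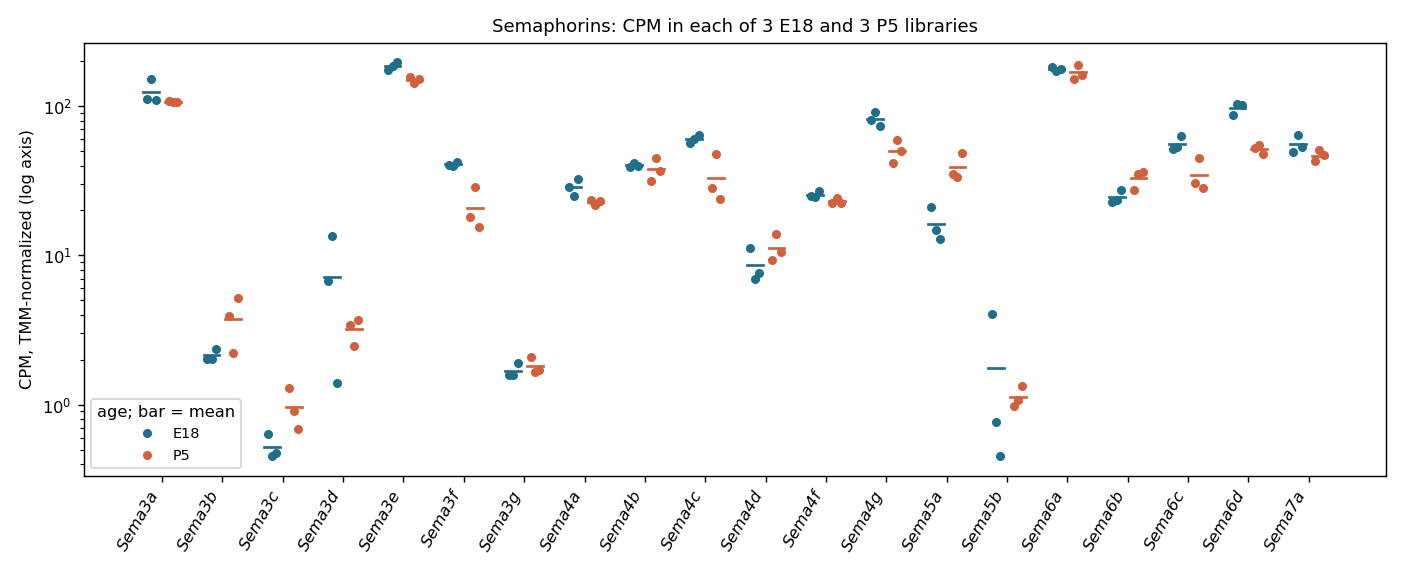
CPM (log axis) of the 20 semaphorins in each of the 3 E18 and 3 P5 libraries, with bars at the mean. Sema3a, Sema3e, Sema3f, Sema4a, Sema4c, Sema4f, Sema4g, Sema6c and Sema6d are higher in every E18 library, some of them narrowly, and Sema3c, Sema5a and Sema6b in every P5 library. Sema3d and Sema5b spread over 9.64-fold and 8.92-fold within E18.

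Levels were compared between genes as mean CPM per kilobase of exon. Nrp1 ranked first at both ages, with 70.6 CPM per kb at E18 and 70.4 at P5. The RefSeq span of Nrp1 reaches 2126 bases beyond its GENCODE span, and counting those bases as exon lowered the levels to 44.3 and 44.2, still the highest. At E18 Plxna3 followed with 40.0 CPM per kb, then Plxna1 (28.3), Sema3e (27.1), Sema6a (25.9) and Plxnb2 (25.6). Samples of E18 overlapped among Plxna1, Sema3e, Sema6a and Plxnb2 on this scale. At P5 Plxna3 stood in position 5 with 18.5 CPM per kb, behind Nrp1, Plxna1 (26.3), Sema6a (24.5) and Sema3e (22.0). Plxnb1 moved from position 10 (15.2 CPM per kb) at E18 to position 21 (5.34) at P5, and Nrp2 from position 18 (9.17) to position 7 (15.9). When RefSeq bases outside GENCODE were added to the lengths, Plxnb1 stood at positions 13 and 21, and Nrp2 at 17 and 6. The lowest members by length at both ages were Plxnb3, Sema3c and Plxna4os1, each at or under 0.175 CPM per kb.

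**Figure D4:**
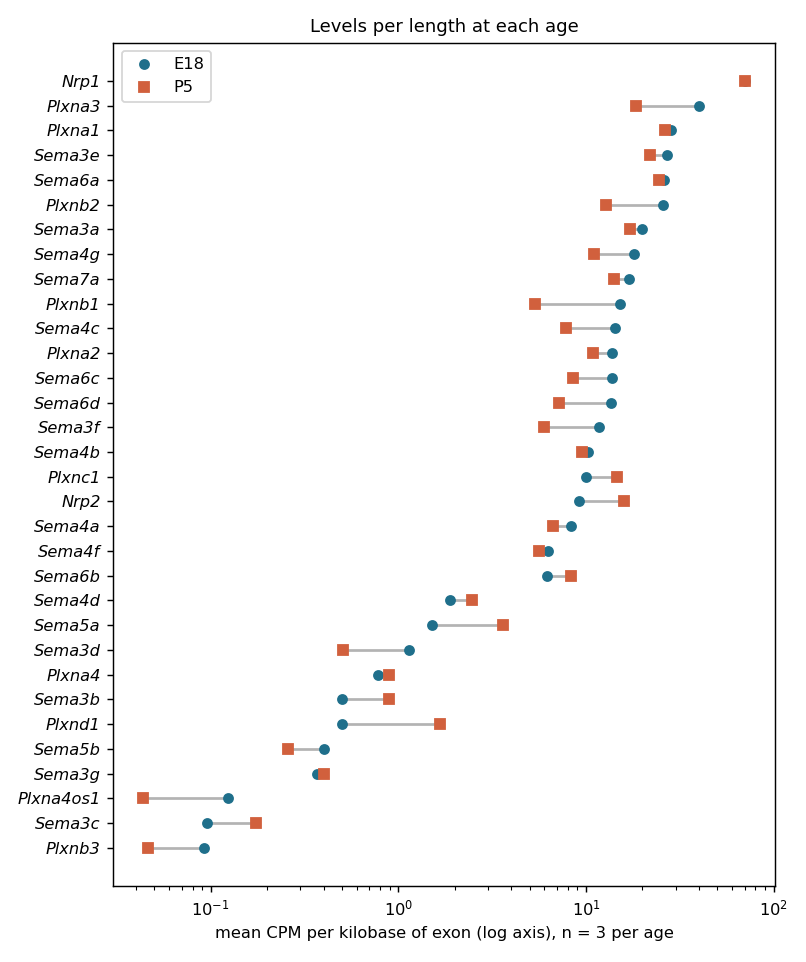
Mean CPM per kilobase of exon (log axis; n = 3 per age) of the 32 members, ordered by the E18 level, with E18 as circles and P5 as squares. Nrp1 leads at both ages at 70.6 and 70.4, and Plxnd1 lies at 0.501 at E18 and 1.66 at P5.

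Known pairs of ligand and receptor can be read side by side in CPM per kb. Sema3e (27.1 at E18, 22.0 at P5) far exceeded its receptor Plxnd1 (0.501 and 1.66) at both ages. Sema3a (19.98 and 17.2) and Nrp1 were not called, and of the 4 A plexins that serve it Plxna3 was higher at E18. Sema3f (11.7 and 5.94) and its plexin Plxna3 (40.0 and 18.5) were higher at E18, and its neuropilin Nrp2 (9.17 and 15.9) was higher at P5. Sema6d (13.6 and 7.22) was higher at E18 while Plxna1, its receptor, was not called. Sema4c (14.2 and 7.81) and Plxnb2 (25.6 and 12.8) were both higher at E18. Sema4d (1.89 and 2.48) was not called beside Plxnb1, which was higher at E18. Sema7a (16.9 and 14.2) was not called, and Plxnc1 (9.96 and 14.6) was higher at P5. Sema5a (1.51 and 3.62) was higher at P5. Of the plexins it is known to bind, Plxna3 and Plxnb3 were higher at E18 and Plxna1 was not called. Plxnb3 was barely detected (0.0918 and 0.0461), and its call was lost under 6 of the 12 alternatives that tested it.

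The E18 libraries disagreed strongly in a few members. The ratio of the highest to the lowest E18 sample exceeded 3 in 4 members, Sema3d (9.64), Sema5b (8.92), Plxna4 (7.43) and Plxna4os1 (3.10), and was at most 1.5 in 24. Plxna4, Sema3d and Plxna4os1 followed one order, E18 replicate 3 highest, then replicate 1, then replicate 4. Less steeply, Plxna2, Sema3a and the called members Sema4g and Plxnc1 had this order too. Of the 13 amacrine and horizontal markers, 12 kept the same order, the exception being Slc6a9 (6.74, 6.95 and 7.67 CPM in E18 replicates 1, 3 and 4). Tfap2b, an amacrine transcription factor, had 47.5, 119 and 1.62 CPM in E18 replicates 1, 3 and 4 and 1.02 to 1.55 at P5, and Chat, the enzyme of cholinergic amacrine cells, had 5.59, 10.9 and 0.287 CPM at E18 and 0.237 to 0.797 at P5. All 3 P5 samples exceeded E18 replicate 4 in Plxna4, Sema3d and Plxnc1, as they did in 3 of the 13 markers, Gad1, Gad2 and Slc32a1. Sema5b was highest in E18 replicate 1, then replicate 3, then replicate 4. So were Mki67 (68.7, 16.2 and 2.84 CPM at E18) and Fgf15 (21.2, 4.27 and 0.883), genes of dividing cells and retinal progenitors. In E18 replicate 3, Mki67 was above its P5 range of 0.967 to 4.17 CPM. Sema5b, with 0.767 CPM there, was below its P5 range of 0.981 to 1.33. The called members Plxnd1 (5.56, 2.66 and 2.16 CPM) and Sema5a (21.1, 14.7 and 12.98), both lower at E18, had this order too. The part of amacrine, progenitor and dividing cells in the levels of these members was not tested. The calls for Nrp2, Plxna3, Plxnb1, Plxnb2, Plxnc1, Plxnd1, Sema3f, Sema4g, Sema5a and Sema6d held in each fit that left out one sample. No fit left out E18 replicates 1 and 3 together, so these fits do not test the part of such cells in the calls.

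**Figure D5:**
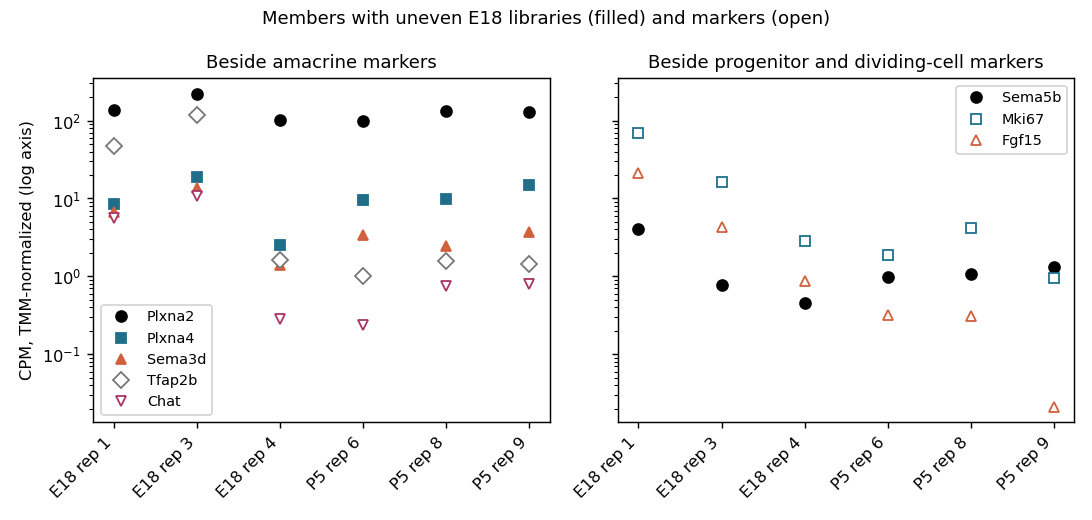
CPM (log axis) in each library of members with uneven E18 values (filled) and of marker genes (open). On the left, Plxna2, Plxna4, Sema3d, Tfap2b and Chat are highest in E18 replicate 3 and lower in E18 replicate 4; on the right, Sema5b, Mki67 and Fgf15 are highest in E18 replicate 1.

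At P5, replicate 8 stood nearest to the E18 samples in 8 of the 10 members higher at E18 and in 1 of the 6 members lower at E18. Among all called genes it was nearest in 62.7% of those higher and 65.5% of those lower at E18. Thy1 itself, the antigen used for panning, had 212, 217 and 312 CPM at E18 and 499, 469 and 690.0 at P5. Without P5 replicate 8, 11 members were higher and 6 lower at E18.

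Beyond the members, 51 genes of the pathway were followed, of which 48 were tested, 12 were higher at E18 and 4 lower. That is 33.3% called against 43.4% of all genes tested, and the 12 became 7 without E18 replicate 3. Their median log2 fold change was 0.04. Trem2, Tyrobp and Timd2, partners of semaphorin receptors in immune cells, did not reach the expression filter. The MICAL and CRMP families carry plexin signals to actin and microtubules. A list of 9 genes, made up of these families and Msrb1, had 4 higher and 1 lower at E18 (55.6% called). Msrb1, which is in neither family, was not called. Mical1 had 30.2, 30.5 and 30.2 CPM at E18 and 18.27, 16.8 and 12.9 at P5 (log2 fold change 0.92, standard error 0.138, edgeR adjusted p = 0.00137). Mical2 moved oppositely, with 1.95, 1.12 and 1.16 CPM at E18 against 9.25, 6.10 and 15.1 at P5, the largest difference of the named pathway genes (log2 fold change -2.85, standard error 0.366, edgeR adjusted p = 0.000779). Both oxidize actin, and the values of neither gene overlapped between the ages.

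Of 26 cytoplasmic transducers, 6 were higher and 1 lower at E18, or 26.9% called against 43.4% of all genes. Enah, an actin-binding protein of the growth cone, had 202, 222 and 190.5 CPM at E18 and 119, 143 and 99.0 at P5 (log2 fold change 0.77, standard error 0.137, edgeR adjusted p = 0.00289). Rnd1, a small GTPase that binds plexins, had 7.23, 6.36 and 8.07 CPM at E18 and 13.8, 12.9 and 15.9 at P5 (log2 fold change -0.98, standard error 0.145, edgeR adjusted p = 0.00135). The other 19 did not pass, Rac1, Rhoa and Fyn among them.

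Of 13 tested coreceptors, 2 were higher and 2 lower at E18, or 30.8% called against 43.4% of all genes. Itgb1, the integrin subunit that also receives Sema7a, had 153, 162 and 139 CPM at E18 and 272, 266 and 314 at P5, so that, like Plxnc1, it was higher at P5 in every sample (log2 fold change -0.91, standard error 0.101, edgeR adjusted p = 0.000440). Chl1, a partner of Nrp1, had 175, 167 and 199 CPM at E18 and 353, 227 and 248 at P5 (log2 fold change -0.62, standard error 0.162, edgeR adjusted p = 0.0155), a call lost without E18 replicate 3 (0.0619). L1cam ranged from 673 to 840 CPM, Nrcam from 545 to 673 and Cntn2 from 74.6 to 95.9, with overlapping ages (edgeR adjusted p = 0.295, 0.463 and 0.192). Kdr, a VEGF receptor that associates with neuropilins and is on the endothelial marker list, had 69.5, 62.9 and 14.1 CPM at E18 against 6.70, 11.3 and 4.79 at P5 (log2 fold change 2.68, standard error 0.553, edgeR adjusted p = 0.00545). The endothelial genes Cdh5 and Tie1 of that list had at most 0.0609 CPM in any sample.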

How the data were processed

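The 6 samples of immunopanned mouse RGCs, 3 at E18 and 3 at P5, were grouped by the age and number in their labels. The authors sequenced 100-base paired-end reads (TrueSeq with RiboZero Gold, although the labels name polyA RNA), used STAR 2.4.0 to align to mm10, and obtained RefSeq gene counts by HT-seq 0.6.1. The deposited raw counts alone were used. The deposited normalized counts (a signal the authors adjusted for library size), the authors' log2 ratios between the ages and for each E18 sample, and the deposited p-values with false discovery rates were not used. Strand setting and the handling of reads shared between genes are not given in the sources used here.

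Counts were tested with edgeR 4.0.16 (R 4.3.3; filterByExpr, TMM, quasi-likelihood test, Benjamini-Hochberg over 16449 genes, threshold 0.05), checked on simulated data. CPM divides counts by TMM-scaled totals of all counted reads. Samples of one age differed by 32.5 to 152 chi-square units per degree of freedom, so none was a duplicate. Coordinates, exon lengths and overlaps are from GENCODE M21 (mm10), matched by symbol for all 32 members, and lengths use transcripts paired with RefSeq. Every member is named; of the pathway list, the 6 largest called changes whose mean was 5 CPM or more, plus 4 coreceptors. Members and lists were chosen with earlier results of these data known. The alternatives comprised likelihood ratio and exact tests in edgeR, DESeq2 1.42.0, other scalings and filters, and leaving out each sample. Genes shared between marker lists and the pathway list (Kdr, Flt1) count in both.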

Additional observations from a re-analysis of the deposited data

How the results depend on the processing

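No paired analysis was possible because the ages share no replicate number. Of the 16 called members, 10 kept their call and direction under every one of the 13 alternatives that tested them, and the 6 that did not were Plxnb3, Sema3c, Sema3e, Sema4c, Sema6b and Sema6c. Across alternatives, 7 to 12 members were higher at E18 and 4 to 7 lower. Leaving out single samples gave 7 to 14 pathway genes higher at E18 (7 without E18 replicate 3), 2137 to 4135 of all genes higher and 2438 to 4661 lower, the lowest counts without E18 replicate 3 and the highest without P5 replicate 8. Signs turned only in members that were not called. Nrp1 ranged from -0.096 to 0.10 without single samples and was -0.0050 with at least 1 CPM required in 3 samples. Plxna4 ranged from -1.04 to 0.27, Sema4b from -0.033 to 0.22, Sema5b from -0.87 to 1.09 and Sema6a from -0.0035 to 0.16. The cause was not tested. The stricter filter gave no value for Plxna4os1, Plxnb3 and Sema3c. The summed levels of the classes moved by less than 1 SD under raw library sizes and RLE. Below 1 CPM, read counts limit precision.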
